A study of Mus musculus with 6 samples.

Results

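The NMDA receptor subunit genes are the 7 mouse genes Grin1, Grin2a, Grin2b, Grin2c, Grin2d, Grin3a and Grin3b, taken by gene name from a table of 55341 genes. They were followed in 6 RNA-seq libraries of cultured cerebellar granule neurons (CGNs), the small excitatory neurons of the cerebellum. 3 libraries labelled with the solvent DMSO (n = 3) were compared with 3 labelled with GSK-126 (n = 3), an inhibitor of EZH2, the enzyme that trimethylates histone H3 at lysine 27 (H3K27me3). The question was how blocking EZH2 alters gene expression as these neurons mature. The labels give the cell type, the agent and the replicate number, with cerebellum as the tissue, and no dose, day or sex. According to the study's methods, both groups were CGNs grown from Percoll-isolated precursors of early postnatal CD1-IGS mice with no genetic change. Each culture replicate pooled cerebella from litters, and all cultures received cytosine arabinoside against dividing non-neuronal cells.

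NMDA receptors are glutamate-gated, calcium-permeable channels that also need glycine or D-serine to open. Each is a tetramer of obligatory GluN1 (Grin1) and GluN2 (Grin2a to Grin2d) or GluN3 (Grin3a, Grin3b) subunits, and the GluN2 type sets how fast the current decays and how strongly magnesium blocks the pore. Young granule neurons rely mainly on GluN2B, and as they mature and receive mossy fibre input, GluN2A and then GluN2C take over.

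Gene-assigned counts per library ran from 8058760 to 12047837, and 3 counts corresponded to 0.25 to 0.375 CPM (a gene's count scaled to the library's total). Markers of glia were present beside those of granule neurons: 10 astrocyte and Bergmann glia markers summed to 2431 to 7340 CPM with DMSO and 2523 to 7662 with GSK-126, lowest in replicate 2 of each group. In these bulk cultures, fewer granule neurons and less RNA per granule neuron cannot be told apart.

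The 7 genes lie on 7 chromosomes (GRCm38), all but Grin3b on the minus strand. Grin2a on chromosome 16 (9567898 to 9995560, 427.7 kb) and Grin2b on chromosome 6 (135713233 to 136173511, 460.3 kb) are long genes. Grin2c on chromosome 11 (115249169 to 115267243) spans 18.07 kb, and Grin3b on chromosome 10 (79970715 to 79977190) spans 6.476 kb. Grin1 lies on chromosome 2 (25291181 to 25319187), Grin2d on chromosome 7 (45831883 to 45878378) and Grin3a on chromosome 4 (49661611 to 49845744). Genes on the opposite strand lay over 13.5% of the exon bases of Grin1 (Grin1os), 9.66% of those of Grin2d and 32.1% of those of Grin3b (Tmem259), against 0% for Grin2a and 1.12% for Grin2b. Whether counting used strand is not given in the sources used here. Grin1os counts were 39.4% to 46.4% of Grin1 counts in every library, so part of either count may come from the other strand.

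The promoter bases of Grin1 and Grin2c are shown because promoters rich in CpG are known as sites where EZH2 can deposit H3K27me3, and these contrast the obligatory subunit with the last GluN2 subunit to appear in granule neurons. Each window is the 150 bases before the RefSeq start (GRCm38.p6, minus strand), at chr2:25319188-25319337 for Grin1 and chr11:115267244-115267393 for Grin2c, with CpG dinucleotides in capitals.
Grin1: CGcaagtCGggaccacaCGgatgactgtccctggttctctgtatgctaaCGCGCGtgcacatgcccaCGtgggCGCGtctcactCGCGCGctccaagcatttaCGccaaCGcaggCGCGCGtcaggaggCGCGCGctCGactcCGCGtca
Grin2c: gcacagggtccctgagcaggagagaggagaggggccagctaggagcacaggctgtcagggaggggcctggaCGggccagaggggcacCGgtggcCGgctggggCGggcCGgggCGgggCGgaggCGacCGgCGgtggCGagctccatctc
The Grin1 window held 23 CpG and the Grin2c window 11. Over 250 bases the counts were 27 for Grin1, more than in 91.4% of 32851 mouse promoters, 15 for Grin2c, 9 for Grin2d and 2 for Grin3b, against a median of 6. The 150 bases before the RefSeq start of Grin2d (chr7:45866682-45866831) lie inside the gene span given above. Its values are therefore those of a start within that span. The motif GGGCGG, searched on both strands with overlaps counted, occurred 3 times in the 250 bases of Grin2c and in none of the other 3 windows, and 32.7% of all promoters held at least 1. Grin2a, Grin2b and Grin3a were not matched. No H3K27me3 measurement enters here, so the letters are a description of the sequence only.

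Compared per kilobase of exon in the DMSO libraries, Grin1 was the most abundant member at 28.3 ± 6.16 CPM per kb (SD, n = 3), above 88.7% of the genes tested. Grin2b followed at 6.12 ± 0.627 CPM per kb. Grin2c (3.89 ± 2.59), Grin3a (3.26 ± 0.656), Grin2a (3.06 ± 0.747) and Grin3b (2.29 ± 0.648) came next, and neighbours in this order overlapped in range from Grin2b down to Grin3b. Grin2d was lowest at 0.689 ± 0.12 CPM per kb, above only 7.01% of the genes tested, and its range lay apart from that of Grin3b. The scale depends on the length used: per kb of the longest coding transcript, Grin1 was at 64.2 CPM and Grin3a at 5.34, which put Grin3a above Grin2c (4) and below Grin2b (6.32). Per kb of exon, the order was the same with GSK-126, with group means of 24.3 for Grin1, 8.55 for Grin2b, 2.99 for Grin2c and 1.76 for Grin2a on the same scale. Grin2b and Grin2a means were 6.12 and 3.06 CPM per kb with DMSO and 8.55 and 1.76 with GSK-126.

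**Figure D1:**
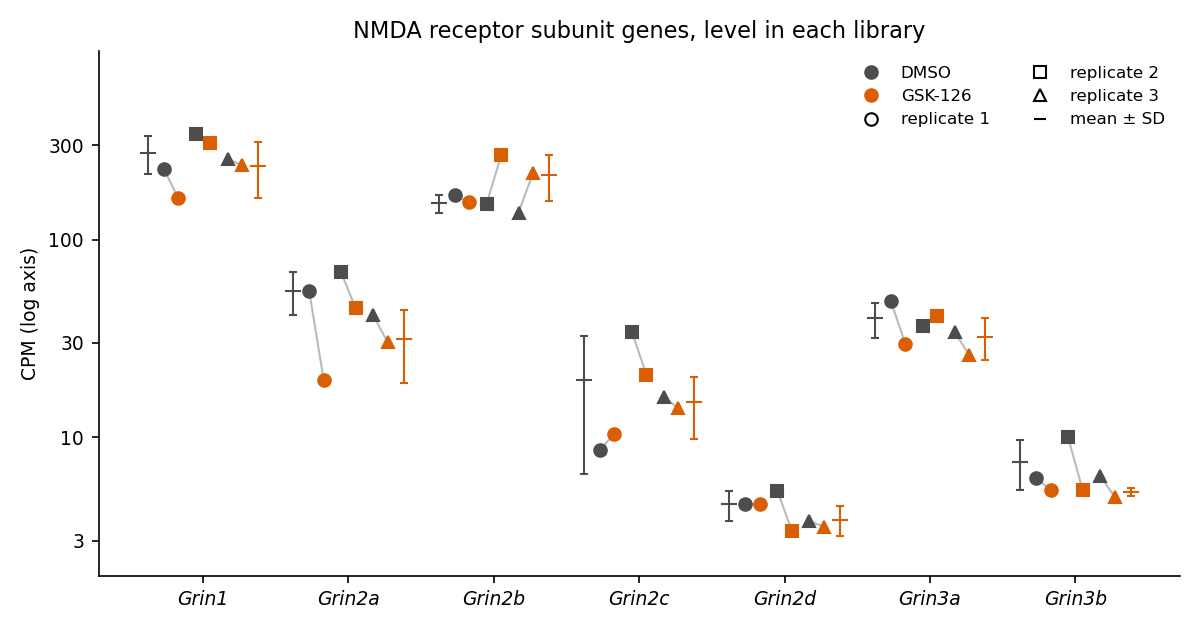
CPM of the 7 subunit genes in each library on a log axis, with grey lines joining libraries of equal replicate number and dashes with bars for the group mean ± SD (n = 3). Grin2a fell along all 3 lines, from 54.9, 68.3 and 41.5 CPM to 19.5, 44.8 and 30.2 CPM, while Grin2b was higher with GSK-126 along 2 of 3.

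Of the 7 members, 1 was lower and 0 were higher with GSK-126 at an adjusted p below 0.05 when libraries were paired by replicate number, and that gene was Grin2a. With this replicate block, edgeR's quasi-likelihood test called 1.42% of 16343 genes lower and 2.23% higher. Without the block it called 0 members and 0% of all genes, where 2 members and 981 genes had an unadjusted p below 0.05 and DESeq2 called 0 members and 48 genes. With the block, 3 members (Grin1, Grin2a and Grin2b) had an unadjusted p below 0.05, as did 2735 of the 16343 genes. 6 members had a fold change below 0 without the block, as did 8217 of the 16343 genes, and Grin2b was above. 4 members (Grin1, Grin2a, Grin2d and Grin3b) were lower in all 3 pairs, against 19.3% of all genes. Grin3b alone did not overlap between groups, where 5.44% of genes lay wholly lower and 5.43% wholly higher with GSK-126.

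Grin1 encodes GluN1, the subunit every NMDA receptor contains. It measured 227, 342 and 255 CPM in DMSO replicates 1 to 3 and 161, 309 and 238 CPM with GSK-126. The groups overlapped, and each GSK-126 library was below its DMSO partner. The log2 fold change was -0.22 (SE 0.249, 95% interval -0.79 to 0.35, edgeR adjusted p = 0.898), and -0.25 (SE 0.111, adjusted p = 0.297) with the block.

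Grin2a encodes GluN2A, a subunit of mature synapses that gives fast-decaying currents. Its level was 54.9, 68.3 and 41.5 CPM with DMSO and 19.5, 44.8 and 30.2 CPM with GSK-126. Groups overlapped because the second GSK-126 library exceeded the third DMSO library, but every GSK-126 library was below its partner, by log2 ratios of -1.48, -0.60 and -0.46. Without the block the log2 fold change was -0.81 (SE 0.303, 95% interval -1.50 to -0.11), which did not pass the edgeR test (adjusted p = 0.814). With the block it was -0.85 (SE 0.186, 95% interval -1.26 to -0.44), a level 0.555 times that with DMSO, at an edgeR adjusted p of 0.0308. The call was lost without replicate 2, though the change was then larger, at -0.96 (adjusted p = 0.0658). That fit called 178 genes over all, against 597 with all 3 pairs. Without replicate 1 or 3 the change was -0.54 (adjusted p = 0.0384) or -1.04 (adjusted p = 0.000903).

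Grin2b encodes GluN2B, the subunit of young neurons, with slow-decaying currents and a tail that binds CaMKII. It stood at 168, 151 and 137 CPM in the DMSO libraries and 154, 266 and 217 CPM in the GSK-126 libraries. GSK-126 replicate 1 was within the DMSO range and the other two were above it. The log2 fold change was 0.48 (SE 0.201, 95% interval 0.02 to 0.94, edgeR adjusted p = 0.824), and 0.45 (SE 0.16, 95% interval 0.10 to 0.80, adjusted p = 0.174) with the block. In the blocked fit the change was 0.74 without replicate 1 (adjusted p = 0.00189), 0.29 without replicate 2 (adjusted p = 0.508) and 0.35 without replicate 3 (adjusted p = 0.512), so that its size and call turned on single pairs.

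Grin2c encodes GluN2C, the subunit of adult granule neurons, whose channels have low conductance and weak magnesium block. Relative to its mean it varied most of the members among the DMSO libraries, at 8.65, 34.0 and 16.1 CPM, and measured 10.4, 20.7 and 14 CPM with GSK-126. All 3 GSK-126 libraries fell inside the DMSO range. Log2 ratios within pairs were 0.26, -0.71 and -0.20, and the fitted change was -0.38 (SE 0.469, 95% interval -1.45 to 0.69, edgeR adjusted p = 0.908). Its direction turned on DMSO replicate 2, without which the change was 0.29. With the block the 95% interval ran from -0.71 to 0.22, so neither a lower nor a higher level was shown.

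Grin2d, which encodes the slowly deactivating GluN2D of early development and interneurons, rested on 28 to 55 counts a library. It measured 4.61, 5.38 and 3.78 CPM with DMSO and 4.58, 3.37 and 3.53 CPM with GSK-126. The groups overlapped, with a log2 fold change of -0.25 (SE 0.318, 95% interval -0.98 to 0.47, edgeR adjusted p = 0.912).

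The GluN3 genes encode glycine-binding subunits that lower calcium permeability when they join a receptor. Grin3a was at 49.1, 36.8 and 34.0 CPM with DMSO and 29.7, 40.8 and 26.1 CPM with GSK-126, lower in pairs 1 and 3 and higher in pair 2. Its log2 fold change was -0.31 (95% interval -0.81 to 0.18, edgeR adjusted p = 0.841), and the groups overlapped. Grin3b was at 6.23, 10 and 6.38 CPM with DMSO and 5.41, 5.42 and 5.01 CPM with GSK-126, the highest treated library below the lowest control. With 44 to 80 counts a library, its log2 fold change of -0.51 (SE 0.291, 95% interval -1.17 to 0.15) did not pass (edgeR adjusted p = 0.836, and 0.427 with the block). Tmem259, whose exons lie opposite a share of those of Grin3b, was at 123 ± 16.2 CPM with DMSO and 114 ± 10.9 CPM with GSK-126 (SD, n = 3), many times the level of Grin3b, and its part in the Grin3b count was not tested.

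**Figure D2:**
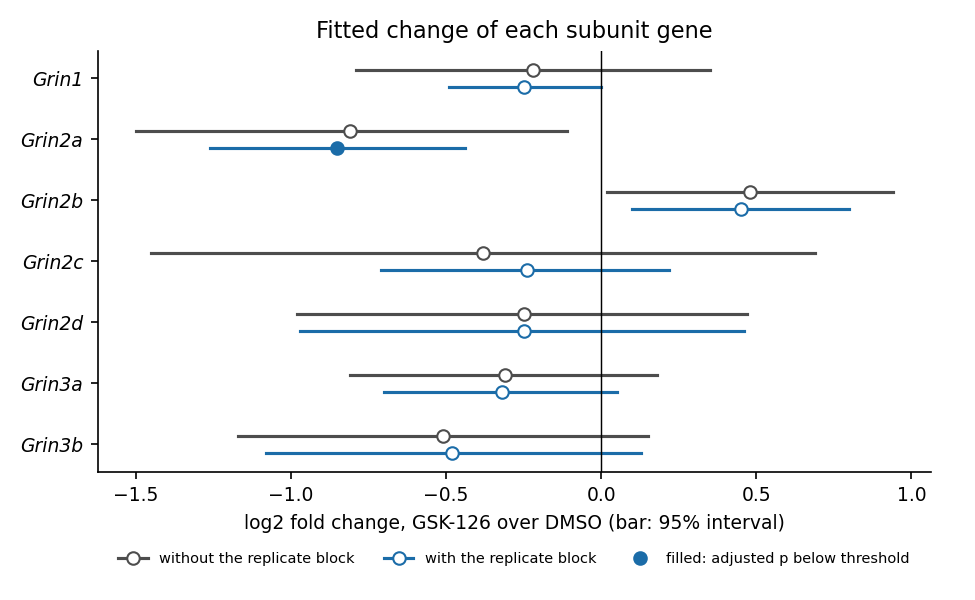
Log2 fold change of each subunit gene (GSK-126 over DMSO, points) with 95% intervals (bars) from edgeR without and with the replicate block. Only the blocked Grin2a point at -0.85 is filled, for an adjusted p below 0.05, and both Grin2b intervals lie above 0.

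The makeup of GluN2 transcripts was also compared inside each library, where library depth cancels. These shares and ratios are made from the same counts as the levels above, with the opposite differences of Grin2a and Grin2b already known, and are no independent evidence of them. Levels were taken per exon length. Grin2a made up 25, 21.8 and 20% of the 4 GluN2 genes with DMSO and 10.8, 14 and 12.3% with GSK-126, means of 22.3 ± 2.56% and 12.4 ± 1.61% (SD, n = 3). Grin2b made up 55.3, 34.9 and 47.6% with DMSO and 61.8, 60.1 and 63.6% with GSK-126, means of 45.9 ± 10.3% and 61.8 ± 1.78%. Neither share overlapped between groups. The Grin2c share was 14, 38.7 and 27.5% with DMSO and 20.5, 23.1 and 20.3% with GSK-126, the treated libraries inside the control range (two-sided exact permutation p = 0.6). Grin2d stayed between 2.84 and 6.84% of the GluN2 total in all 6 libraries.

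**Figure D3:**
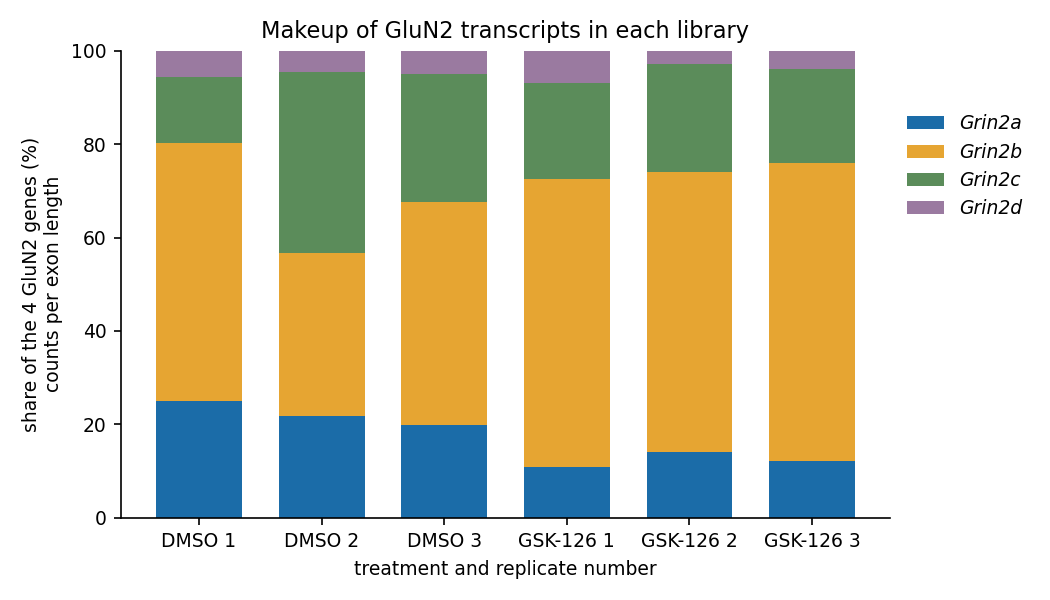
Share of each GluN2 gene (stacked bars, %) in the sum of the 4 GluN2 genes, from counts per exon length, for each library. The Grin2a segment is 20 to 25% in the DMSO libraries and 10.8 to 14% in the GSK-126 libraries, and the Grin2c segment varies most among the DMSO libraries.

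The ratio of GluN2A to GluN2B transcripts is the usual index of the switch between these subunits. Log2 of Grin2a over Grin2b was -1.14, -0.68 and -1.25 with DMSO and -2.52, -2.10 and -2.38 with GSK-126. The groups did not overlap, and the pairs differed by -1.37, -1.42 and -1.12, a mean of -1.31 (SD 0.16, n = 3 pairs), so that the ratio was 0.405 times its value with DMSO. The spread between pairs was small beside the difference. With 3 libraries a group, the two-sided exact permutation test gave p = 0.1, the smallest it allows, and 0.225 after Benjamini-Hochberg adjustment over 9 shares and ratios, while the exact sign-flip test over pairs gave 0.25, also its smallest. Neither of these exact tests can pass 0.05 with 3 libraries a group.

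Log2 of Grin2c over Grin2b was -1.98, 0.15 and -0.79 with DMSO and -1.59, -1.38 and -1.65 with GSK-126, overlapping between groups (exact permutation p = 0.4). Log2 of Grin2c over Grin2a was -0.83, 0.83 and 0.46 with DMSO and 0.93, 0.72 and 0.72 with GSK-126 (exact permutation p = 0.3). Neither ratio that holds Grin2c separated the groups. The 4 GluN2 genes summed, over Grin1, gave log2 ratios of -0.94, -1.01 and -1.18 with DMSO and -0.73, -0.84 and -0.84 with GSK-126. GluN2 transcripts per GluN1 transcript were thus higher by 0.21, 0.18 and 0.35 in the 3 pairs, with no overlap and an exact permutation p of 0.1 (0.225 adjusted).

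**Figure D4:**
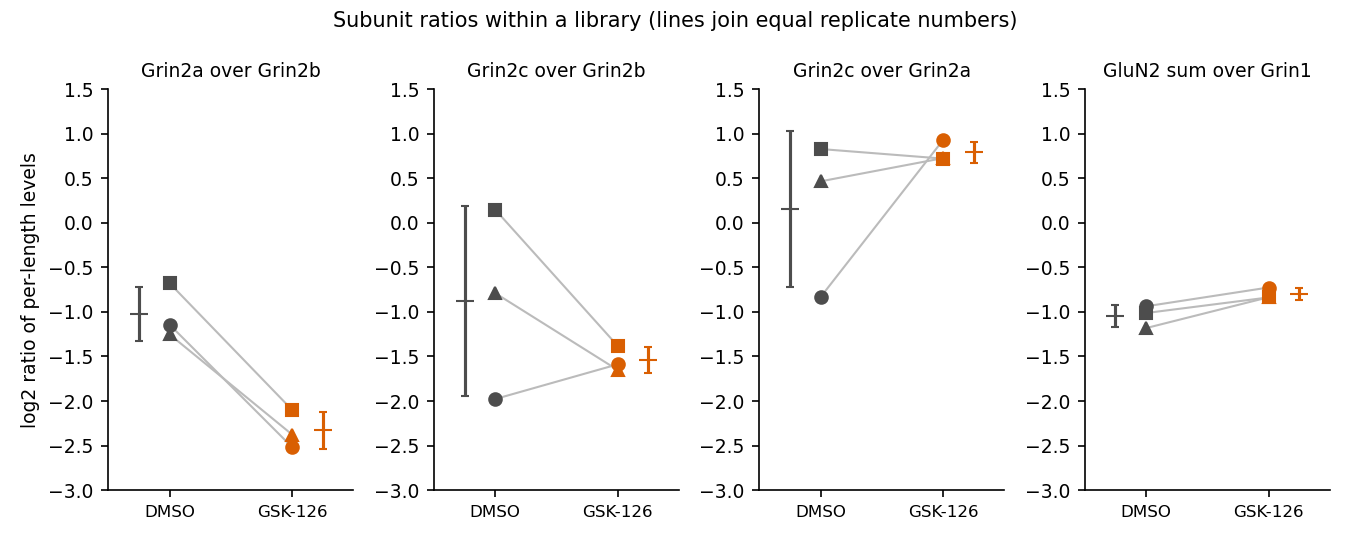
Log2 ratios of per-length levels within each library, with circles, squares and triangles for replicates 1, 2 and 3, lines joining equal numbers, and dashes with bars for the mean ± SD (n = 3). Grin2a over Grin2b lies between -1.25 and -0.68 with DMSO and between -2.52 and -2.10 with GSK-126, while the ratios with Grin2c overlap.

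Sums of cell type markers were also compared between the groups. The summed level of 12 granule neuron markers was 4479, 6467 and 4958 CPM with DMSO and 3233, 4997 and 3620 CPM with GSK-126, lower in every pair. With the block, 6 of the 12 (Neurod1, Rbfox3, Cbln1, Cbln3, Gabra6 and Etv1) were called lower. Not all granule markers were lower: group means were 176 and 181 CPM for Pax6, 80.1 and 106 CPM for Barhl1, and 87.7 and 112 CPM for Tubb3, with DMSO and GSK-126 in turn. Endothelial, mural and fibroblast markers summed to 4570 to 6083 CPM with DMSO and 6551 to 7131 CPM with GSK-126, without overlap, and most of that sum was the collagen genes Col1a1 (means of 2607 and 3540 CPM) and Col1a2 (2149 and 2788 CPM). Pdgfrb and Col1a1 were called higher with the block. Of the endothelial markers, Cdh5 (means of 49.6 and 40.2 CPM) and Kdr (11.7 and 11.6 CPM) were not higher with GSK-126. Pecam1 (1.66 and 2.19 CPM) and Cldn5 (0.233 and 1.08 CPM), both at low levels, were higher in the mean. The 14 markers of cerebellar GABAergic neurons summed to 378, 293 and 347 CPM with DMSO and 302, 268 and 286 CPM with GSK-126, lower in every pair, and Slc32a1 was called lower. Oligodendrocyte lineage markers (660, 447 and 697 against 828, 515 and 726 CPM) and microglia and myeloid markers (275, 181 and 316 against 373, 229 and 371 CPM) summed higher in every pair, with Cspg4 and Cd68 called higher. Granule precursor and cell cycle markers (533, 416 and 561 against 620, 460 and 604 CPM) also summed higher in every pair, with 0 called. Of these, Ccnd1 was higher in the mean (151 and 198 CPM) and Ccna2 lower (44.9 and 41.3 CPM). Unipolar brush cell markers summed to 429, 488 and 396 against 331, 463 and 349 CPM. Eomes of that list was called lower, while Lmx1a was higher in the mean (0.913 and 2.01 CPM). Astrocyte and Bergmann glia markers (7340, 2431 and 4435 against 7662, 2523 and 3945 CPM) shared no direction over the pairs. Gdf10 of that list was called higher, while Aqp4 (1227 and 1049 CPM) and Slc1a3 (952 and 811 CPM) were lower in the mean. No marker of these lists was at 0 in all libraries. The part of these shifts in the subunit values, and in those of the genes around the receptor described below, was not tested.

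As a description chosen after the values were seen, members were also set against a sum of 9 granule markers. These are the markers not on the list of late granule neuron genes described below, and Neurod1, Rbfox3 and Etv1 among them were themselves called lower. The sum was 4063 ± 610 CPM with DMSO and 3167 ± 619 CPM with GSK-126 (log2 difference -0.37), which by itself raises the mean difference of each member on this scale. Log2 of Grin2b over that sum was -4.40, -4.97 and -4.83 with DMSO and -4.11, -3.86 and -3.78 with GSK-126, higher in all pairs by 0.30, 1.11 and 1.05. Log2 of Grin2a over it was -6.02, -6.12 and -6.55 with DMSO and -7.10, -6.43 and -6.62 with GSK-126, with differences of -1.08, -0.31 and -0.07. For Grin1 the pairs differed by -0.08, 0.15 and 0.29. On this scale Grin2b was higher in pair 1 as well, Grin2a overlapped between groups and hardly differed in pair 3, and Grin1 was no longer lower in every pair. Grin2d (0.41, -0.38 and 0.29) and Grin3b (0.21, -0.59 and 0.04) were not lower in every pair either, and Grin3b overlapped between groups.

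Receptor function also depends on proteins that hold, modify and feed the channel. Without the block edgeR called 0 genes of the 5 lists described here, where 4 of the scaffold genes, 3 of the kinases and effectors, 1 of the glycine and D-serine genes, 2 of the regulators and 9 of the late genes had an unadjusted p below 0.05 and DESeq2 called 3, all late genes. The calls that follow are from edgeR with the block, which called 13% of the scaffold genes and 11.5% of the kinases and effectors, against 3.65% of all genes tested. In that fit, 11 of 23 scaffold genes, 11 of 26 kinases and effectors and 8 of 24 regulators had an unadjusted p below 0.05. Over all genes it was 2735 of 16343. All 5 lists were chosen with earlier results of these data known, so these shares are no independent evidence of change around the receptor. Of 23 measured scaffold and trafficking genes, 1 was higher and 2 were lower, where DESeq2 with the block called 6, with a median log2 fold change of -0.09 against -0.00 over all genes. The membrane-associated guanylate kinases that anchor NMDA receptors did not pass: Dlg4 (PSD-95) was at 220 ± 49.8 CPM with DMSO and 181 ± 19.8 CPM with GSK-126 (-0.26, edgeR adjusted p = 0.246). Dlg3 (SAP102, prominent at young synapses) came closest at -0.45 (adjusted p = 0.0536), and Dlg2 (-0.20) and Dlg1 (0.01) were further off. Actn1, an actin crosslinker, rose by 0.56 (SE 0.101, adjusted p = 0.013). Lin7a, a PDZ adaptor, fell by 0.64 (adjusted p = 0.0221), and Dlgap3, a partner of PSD-95, fell by 0.52 (adjusted p = 0.0305).

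Of 26 kinases, phosphatases and calcium effectors, 1 was higher and 2 were lower, where DESeq2 with the block called 4, with a median of -0.12. Ppp3ca, the calcineurin catalytic subunit activated by calcium entry, measured 841, 993 and 774 CPM with DMSO and 462, 659 and 472 CPM with GSK-126, without overlap, and fell by 0.72 (SE 0.101, edgeR adjusted p = 0.00461). Rasgrf1, a calcium-responsive exchange factor for Ras, fell from 17.5 ± 4.11 to 8.73 ± 1.82 CPM (adjusted p = 0.0214). Dapk1, a death-associated kinase that binds GluN2B, rose from 47.2 ± 16.2 to 71.2 ± 19.8 CPM (adjusted p = 0.0181). The part of non-neuronal cells in the rises of Dapk1 and Actn1 was not tested. The CaMKII genes did not pass, with Camk2b at -0.42 (adjusted p = 0.0535), Camk2d at -0.38, Camk2a at -0.11 and Camk2g at 0.19.

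The 12 measured genes of glycine and D-serine supply had a median of 0.04, and edgeR called 0 of them with the block, where 2 of the 12 and 2735 of all 16343 genes had an unadjusted p below 0.05 and DESeq2 with the block called 0. Among 24 regulators linked to the GluN2 switch, 1 passed (4.17%), close to the 3.65% of all genes tested. It was Etv1, a transcription factor of granule neuron terminal maturation and also 1 of the granule markers above. Its level was 134, 273 and 140 CPM with DMSO and 54.9, 136 and 75.9 CPM with GSK-126 (-1.06, SE 0.116, edgeR adjusted p = 0.00139). The median of these regulators was 0.01.

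Late granule neuron genes, a list chosen with results of these libraries known and so no independent evidence of direction, were all lower with the block (12 of 12, median -1.02). Gabra6, the GABA-A receptor subunit typical of granule neurons, was at 103, 209 and 86.5 CPM with DMSO and 33.1, 78.1 and 37.5 CPM with GSK-126 (-1.42, edgeR adjusted p = 0.00034). Gabrd, its extrasynaptic partner, was at 44.4, 106 and 64.5 CPM against 21.7, 38.9 and 26.9 CPM (-1.25, adjusted p = 0.001). Slc17a7, which loads glutamate into vesicles, went from 54, 255 and 59.3 CPM to 14.3, 39.3 and 17.2 CPM (-2.16, adjusted p = 0.00034). Snap25 (-1.09), Cbln3 (-1.45) and Wnt7a (-1.75) were lower too. Grin2c shared with Gabra6, Gabrd and Slc17a7 a maximum in DMSO replicate 2, as did Grin1, Grin2a, Grin2d and Grin3b. The treated libraries of Grin2c stayed within its DMSO range, where those of Gabra6, Gabrd and Slc17a7 were below theirs.

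**Figure D5:**
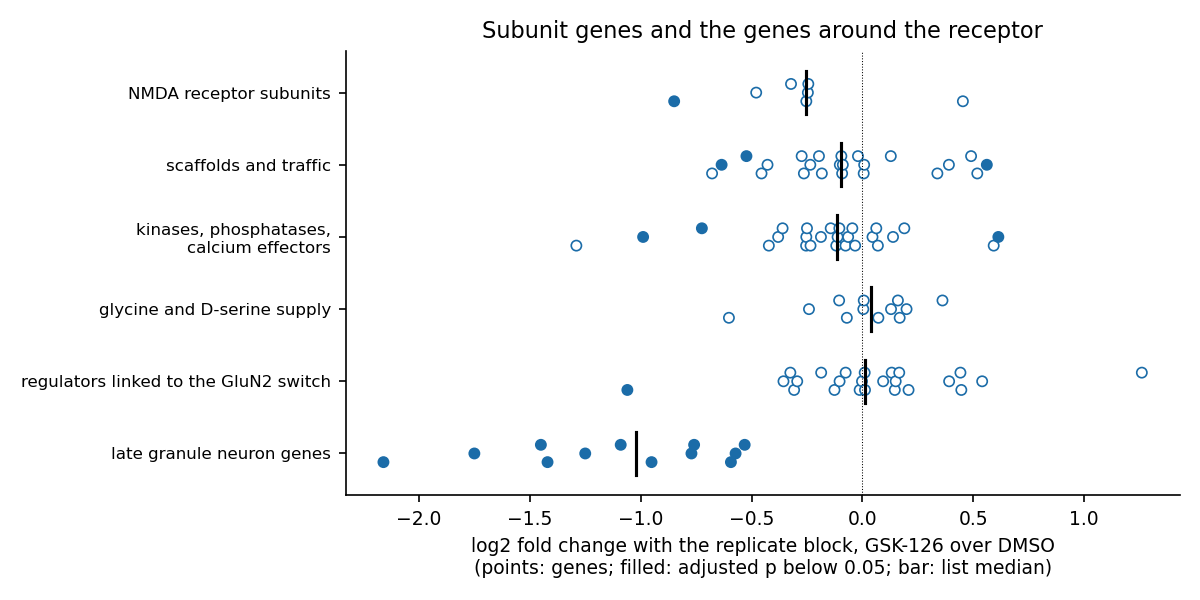
Log2 fold change with the replicate block for the 7 subunit genes and 5 lists of genes around the receptor (points, filled at an adjusted p below 0.05, bar at the list median). Medians of the 4 lists of partners and regulators lie between -0.12 and 0.04, and all 12 late granule neuron genes lie to the left of 0.

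Finally, profiles over the 6 libraries were compared by Pearson's r of log2 CPM, as a description in which all genes share depth and culture. The nearest to Grin2a were Snapc3 (0.998), Cabp7 (0.997) and Celsr2 (0.997), and 247 genes had r above 0.95. Grin2b stood more apart, with 10 such genes, led by Gm44423 (0.975), B3gat1 (0.973) and Crhr1 (0.973). For Grin1 there were 168, led by Hivep3 (0.994), Coq10a (0.992) and Adam1a (0.992), and for Grin2c 98, led by Akap1 (0.996), D17H6S53E (0.992) and Dlgap4 (0.991).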

How the data were processed

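RNA from DMSO and GSK-126 treated CGN cultures was poly(A)-enriched and sequenced as paired ends. The authors trimmed reads with Trimmomatic 0.38, aligned them with STAR 2.7.2b to mouse GRCm38, and deposited raw read counts per gene over exons, made with HTSeq. The submitters' processing notes name mm10. Of the deposited counts in each library, 39.1 to 41.6% were assigned to genes, 44.8 to 46.7% had no feature and 9.54 to 10.4% aligned to several places, and entries that name no gene were left out. Multi-mapped reads are thus lost, which could lower genes with near-identical copies.

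Genes were filtered with filterByExpr (16343 of 55341 kept, all 7 members among them), scaled by TMM and tested with edgeR 4.0.16 (glmQLFit, glmQLFTest, R 4.3.3), p-values Benjamini-Hochberg adjusted over all genes with a threshold of 0.05. A log2 fold change is from this fit, and its SE was taken from the F statistic. A second fit added the replicate number as a block. DESeq2 1.42.0 was an alternative. Libraries of equal number deviated from their group means together (correlations 0.35, 0.5 and 0.52, other pairings -0.41 to -0.01), so the numbers were read as pairing the cultures, a reading that comes from the labels' numbers and this correlation. Replicates were separate cultures per the methods, and differed from each other beyond counting noise. The floor of 3 counts covers counting error only. CPM is a gene's count scaled to the library's TMM-adjusted total.

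Levels between genes are CPM per kb of merged exons (GENCODE M21). Shares and ratios were compared with two-sided exact permutation tests. Promoters come from RefSeq (GRCm38.p6), where 4 of 7 members matched. The steps were tested on simulated data. Named were the 7 members, Dlg1 to Dlg4, the 4 CaMKII genes, Gabra6, Gabrd, Slc17a7, up to 6 called genes a list by smallest blocked p, and for Grin1, Grin2a, Grin2b and Grin2c the 3 genes of highest r. The members and lists were chosen with earlier results of these data known. Python steps used pandas 2.3.3, scipy 1.17.1 and matplotlib 3.10.9.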

Additional observations from a re-analysis of the deposited data

How the results depend on the processing

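Pairing by replicate number (the replicate block), the tool and the filter on low counts each changed the counts of calls. Members called went from 0 to 1 with the block, 1 with DESeq2 and the block, and 1 with DESeq2 size factors in edgeR and the block (chosen after seeing the data), and from 0 to 2 when the blocked fit left out a replicate (0 without replicate 2, 1 without replicate 3, and 2, Grin2a and Grin2b, without replicate 1). Genes called over all tested went from 0 to 597 with the block, 48 with DESeq2, 646 with DESeq2 and the block, 574 with DESeq2 size factors and the block, 85 without the filter on low counts, and 178 to 704 in the blocked fits that left out a replicate, 178 without replicate 2 and 359 without replicate 3. Genes of the 5 surrounding lists went from 0 to 19, 3, 23, 19 and 7 under the same settings in turn, and 9 to 25 in the leave-one-out fits (14 without replicate 3). Leaving out single libraries without the block gave 0 calls over all genes.

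Over fits without single libraries the log2 fold change of Grin2c ran from -0.73 (without DMSO replicate 1) to 0.29 (without DMSO replicate 2), against -0.38 with all, and turned to 0.04 in the blocked fit without replicate 2. The difference in its share ran from -11.8 to 0.505 percentage points, the latter without DMSO replicate 2, and that of Grin2d from -1.71 to 0.287, the latter without GSK-126 replicate 2. Of the other values under alternatives, 97 fold changes kept direction and side of the threshold, 88 shares and ratios kept direction (their exact tests cannot pass the threshold), and 6 fold changes kept direction and newly passed it, 5 of them for Grin2a and 1 for Grin2b, all with the block. With the longest coding transcript as the length, levels with DMSO were 64.2 CPM per kb for Grin1, 0.845 for Grin2d and 5.34 for Grin3a. The cause of these changes was not tested, beyond that fewer libraries entered some fits. Counts of 28 to 55 for Grin2d and 44 to 80 for Grin3b limit what can be seen for those genes.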
